A study of Mus musculus with 16 samples.

Results

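The genes described here encode SETD5, a SET-domain protein, and 4 subunits of the nuclear receptor corepressor complex: NCOR1, HDAC3, TBL1XR1 and GPS2. They were chosen by name, and each was examined over its gene body plus 20 kb on each side in mm9, so that 5 of the 22367 protein-coding genes of the annotation are covered. All islands that overlapped these windows were taken from 16 deposited ChIP-seq lists of 3T3-L1 cells, a mouse preadipocyte line that forms fat cells after exposure to the MDI hormone cocktail. An island is a stretch of the genome in which the authors' peak caller found more reads than its threshold, and its score ranks it within its own list. A region without an island was below that threshold, and the lists give no read counts, so the depth behind a single island is unknown.

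H3K27ac, an acetylation of histone H3 found at active promoters and enhancers, was profiled in cells that carried an empty retrovirus and in cells that carried a retrovirus with the SETD5 coding sequence joined to a C-terminal V5 tag. These 2 kinds of cells were sampled before induction (0 h) and after 48 h of MDI, with 2 lists, named A and B, in each of the 4 groups. SETD5-V5 itself was profiled with an antibody to the tag at 0 h and 6 h, again with lists A and B, although the label field for the virus names SETD-V5 for list B and holds a dash for list A. H3K4me1, a methylation of histone H3 that enhancers carry both before and during activity, was profiled at 0 h and 48 h with 1 list each, and endogenous SETD5 at 0 h and 6 h with 1 list each, so these 4 lists have no replicate. The labels of the H3K4me1 lists name the SETD-V5 virus, whereas the study's figures show them as untransduced cells. The SETD5 cells were a stably selected line in which a retroviral promoter drove the transgene beside the cells' own Setd5 gene. The study describes the H3K27ac and SETD5-V5 libraries as biological replicates, and p-values measure the spread between these lists.

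NCOR1 is the scaffold of the corepressor complex, HDAC3 is its histone deacetylase, TBL1XR1 is a WD40-repeat subunit that joins the complex to chromatin and to its turnover, and GPS2 is a small subunit that binds NCOR1 and TBL1XR1. Unliganded nuclear receptors and other repressors recruit the complex, and HDAC3 then removes acetyl groups from histone tails, H3K27 among them. SETD5 has been found in association with this complex. The lists show where chromatin at these genes was acetylated or bound. They do not measure how much of each protein or transcript was present.

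The H3K27ac lists held 31292 to 39949 islands that covered 103 to 122 Mb. The SETD5-V5 lists held 16054 (A) and 6666 (B) islands at 0 h and 35573 and 27220 at 6 h, so both 6 h lists were longer than both 0 h lists. The H3K4me1 lists held 50276 and 49926 islands and the endogenous SETD5 lists 2132 and 3293. As a check of the labelled cells, all 4 preadipocyte markers (Pdgfra, Dlk1, Thy1 and Pdgfrb) had a promoter island in all 8 H3K27ac lists. Of 6 adipocyte markers, Cebpa and Pparg had one in all 8 lists, Fabp4 and Plin1 in every 48 h list and no 0 h list, Adipoq in both empty-vector 48 h lists, and Cd36 in 1 empty-vector 48 h list. The windows of all 6 adipocyte markers were covered less in both SETD5 lists than in both empty-vector lists at 48 h, against 22% of all genes. Whether that difference between the vectors had a part in the values of the 5 genes at 48 h was not tested.

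At Setd5 (ENSMUSG00000034269.6, chr6:113027359-113103429 on the plus strand), the SETD5 cells had H3K27ac islands over the coding exons that the empty-vector cells lacked. The gene has 21 coding exons with 4380 coding bases, the first of them 27.7 kb from the start of the gene, and exons are numbered here from 1 at the 5′ end. In the 4 empty-vector lists, 0% of the coding bases lay under an H3K27ac island. With SETD5, 79.7% (A) and 81.4% (B) lay under one at 0 h, and 88.8% (A) and 91.4% (B) at 48 h. The mean was 85.3% ± 5.65 (SD, n = 4 lists with both times pooled, so the SD also holds the difference between times). All 4 SETD5 lists were thus far above all 4 empty-vector lists, with 15 and 16 exons hit at 0 h and 18 and 19 at 48 h.

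**Figure D1:**
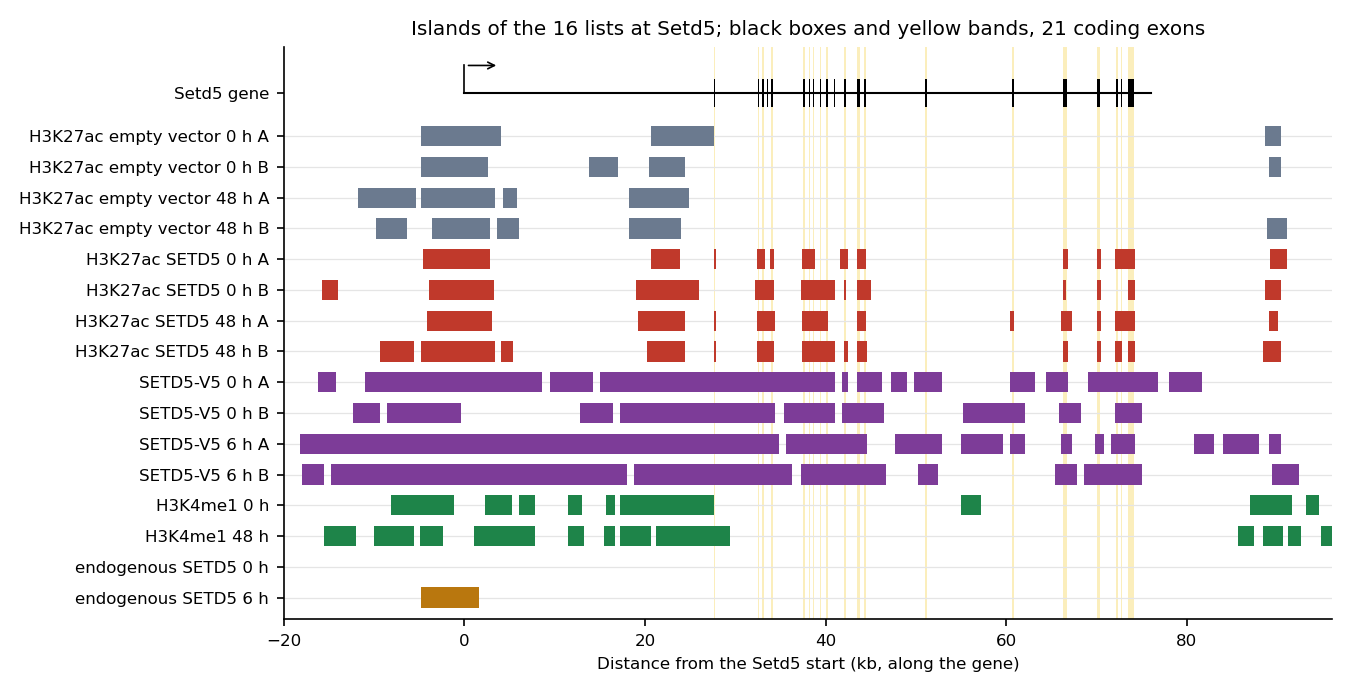
Islands at Setd5 in each of the 16 lists (rows), drawn as bars against the distance in kb from the start of the gene, with coding exons as black boxes and yellow bands. The red bars of the 4 H3K27ac lists with SETD5 fall on the exon bands, where the 4 grey rows of the empty vector hold no bar.

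The difference of 85.3 percentage points had p = 0.0556 in an exact two-sided permutation test of the vector labels within each time point, which is the smallest p that the 36 arrangements of 8 lists allow. With only islands above the median score of each list the difference was 33.1 points, at the same p. Adjusted over all 22359 genes with coding bases, that p was 1, since a design of this size cannot pass a correction. As a description, no other gene had a difference as large. Both SETD5 lists lay above both empty-vector lists at 0 h and at 48 h in coding coverage at 0.541% of the genes. Of the 5 genes Setd5 met this rule, and so it did when all 4 lists had to lie above all 4, a rule met by 0.313% of genes. The other 4 genes showed small or opposite values, with 2.66 points at Ncor1, 1.30 at Hdac3, 12.95 at Tbl1xr1 and -12.8 at Gps2.

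Introns of Setd5 did not follow the exons. They were covered to 19.3% ± 3.54 (SD, n = 4 lists with both times pooled) with SETD5 and 15.2% ± 1.08 with the empty vector. The range was 14.2% to 22.2% in the first group and 13.7% to 16.3% in the second, so the ranges overlapped. The difference between the vectors in coding bases thus exceeded that in intron bases by 81.2 points. Among 19438 genes with both kinds of bases, Gjc1, a connexin gene with 1 coding exon, had a larger excess, at 83.0 points. Among 7686 genes with at least 10 coding exons, Setd5 had the largest, and the next, Sh3gl1, stood at 45.0 points. Gjc1 and Sh3gl1 were named after their values were seen.

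Between the first and the last coding base, a stretch of 46417 bp of which 9.44% is coding, the 4 SETD5 H3K27ac lists held 33 islands. All 33 lay on a coding exon, 18 of them on exactly 1. Their median distance was 44 bp from the island's edge to the first exon it held and 81 bp from the last exon to the other edge. In 27 islands at most 200 bp, the caller's window, lay beyond the exons on both sides. Islands on several exons also held the introns between them, and the median coding share of an island was 39.4%. Of the 21 coding exons, 11 were hit in all 4 lists, 7 in 3, 1 in 2 and 1 in 1. Exon 15, of 130 bp, was hit in none of them.

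The stretches at exons 1, 12 and 18 are shown in the reference sequence of mm9, plus strand, with coding bases in capitals and other bases in lower case. They are examples of islands on a single exon and do not stand for all islands. The exon 1 line runs from the first coding base to the end of the island chr6:113055001-113055200, which was identical in 3 SETD5 lists. The 44 bases of that island before the exon are not printed. Exon 12 is shown over the whole island of list B at 0 h, of which 191 of 200 bases are coding. In list A the exon 12 island at 0 h was longer, with 258 of 800 bases coding, and there was none at 48 h. For exon 18 the last window of its island is given, in which 132 bases are coding. That island, chr6:113097401-113097800, had the same start and end in all 4 SETD5 lists.
Exon 1, chr6:113055045-113055200: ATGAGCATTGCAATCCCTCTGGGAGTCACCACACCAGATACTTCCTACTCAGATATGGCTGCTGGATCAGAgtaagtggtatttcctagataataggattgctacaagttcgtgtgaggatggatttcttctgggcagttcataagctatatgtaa
Exon 12, chr6:113069401-113069600: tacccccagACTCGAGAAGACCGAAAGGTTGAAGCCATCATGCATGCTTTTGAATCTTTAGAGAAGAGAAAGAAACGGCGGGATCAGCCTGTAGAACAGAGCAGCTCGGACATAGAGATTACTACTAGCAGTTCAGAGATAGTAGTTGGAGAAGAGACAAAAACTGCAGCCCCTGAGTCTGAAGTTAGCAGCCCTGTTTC
Exon 18, chr6:113097601-113097800: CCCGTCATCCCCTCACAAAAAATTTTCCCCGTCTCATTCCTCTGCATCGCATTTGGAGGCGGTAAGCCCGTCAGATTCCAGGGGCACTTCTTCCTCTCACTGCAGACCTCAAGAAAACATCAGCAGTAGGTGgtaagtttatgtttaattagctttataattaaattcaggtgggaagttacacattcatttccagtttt

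The last coding exon, exon 21, showed where the islands stopped. Its H3K27ac island ended at position 113101600 in all 4 SETD5 lists, 139 bp past the last annotated coding base at 113101461. The 3′ UTR was accordingly covered to 7.06% in each of the 4 lists and to 0% in the 4 empty-vector lists. The island at exon 21 had a higher score than most islands of its list, with 21.5% to 40.8% of the list scoring higher. The 33 islands as a whole were spread wider, with 21.5% to 98.1% scoring higher and a median of 69.6%.

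The SETD5-V5 lists covered the coding exons almost completely. Coding coverage was 100% (A) and 90.2% (B) at 0 h and 100% (A) and 94.3% (B) at 6 h, with 18 exons hit in all 4 lists and 3 in 3 of them. Here the introns were covered too, to 76.6% and 55.1% at 0 h and 79.5% and 72.6% at 6 h, so the islands reached further into introns than the H3K27ac islands did. Most islands of the coding span still held a coding exon, 7 of 8 in list A at each time, 6 of 6 in list B at 0 h and 5 of 5 at 6 h. List A at 6 h nevertheless ended its last exonic island at the same position, 113101600, as the H3K27ac lists. The other 3 lists ran 939 to 2739 bp past the last coding base.

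The H3K4me1 and endogenous SETD5 lists lacked these exonic islands. H3K4me1 covered 0% of the coding bases at 0 h and 1.62% at 48 h, where 1 broad island reached exon 1. It covered 28.8% and 30.6% of the intron bases, mainly upstream of that exon. Endogenous SETD5 covered 0% of the coding bases at both times. The libraries labelled with the SETD-V5 virus for H3K4me1 therefore held no island on exons 2 to 21.

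**Figure D2:**
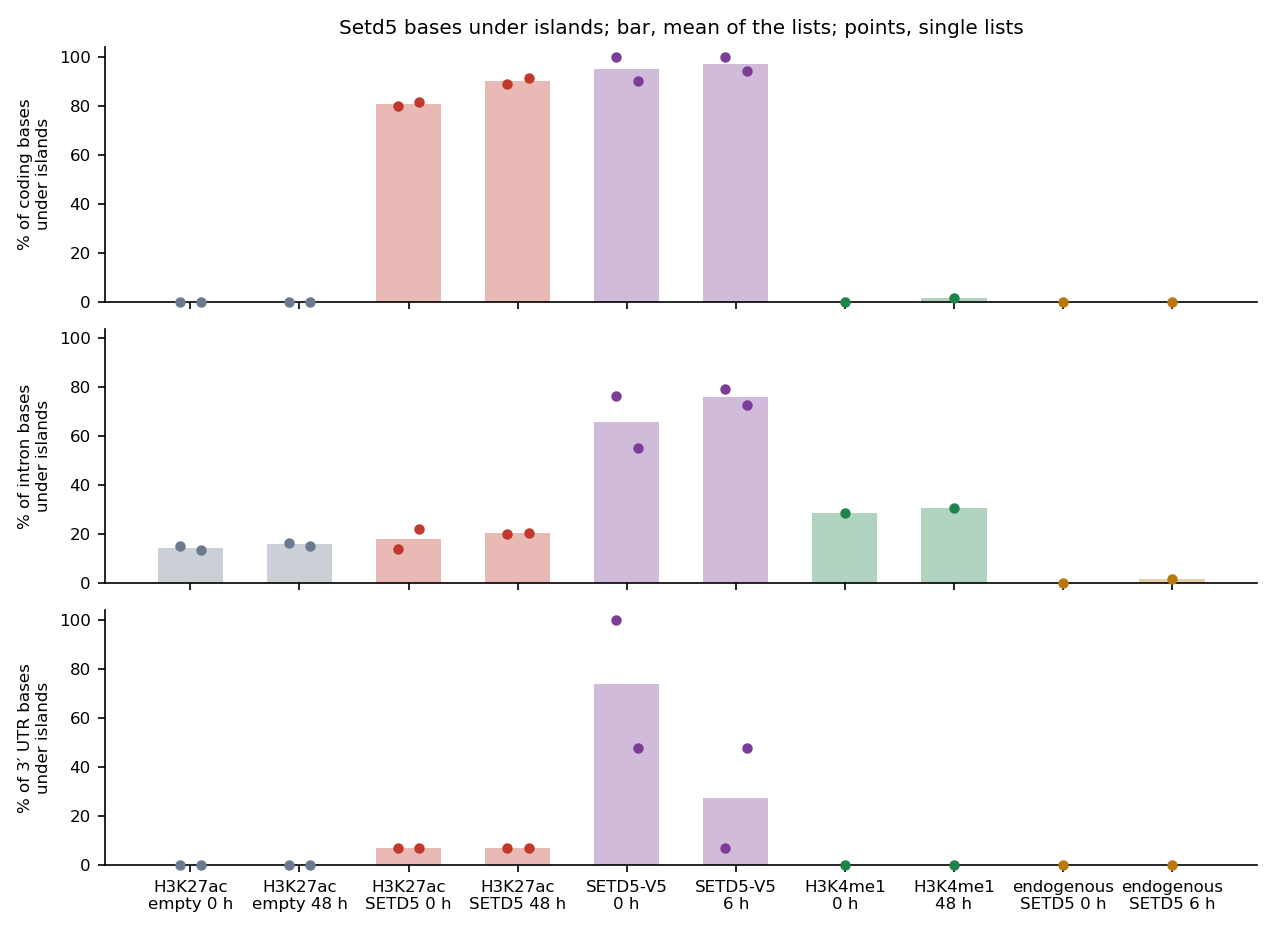
Percent of Setd5 coding, intron and 3′ UTR bases under islands (vertical axes, 0 to 100%) in each group of lists, with bars as means and points as single lists. The coding panel separates the SETD5 H3K27ac groups (79.7% to 91.4%) from the empty-vector groups (0%), while the intron panel does not.

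A provirus made from the SETD5 coding sequence holds exons and no introns, and mapped reads from it would fall on the exons of the gene. Islands from such reads and islands from acetylated or bound chromatin at the gene itself cannot be told apart in a list of islands. The share of reads from the provirus was not tested. Regions of the Setd5 locus away from the exons are therefore described apart below. Window totals of Setd5 hold the exonic islands unless stated otherwise.

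Away from the exons, the Setd5 locus had the same 3 acetylated regions in nearly every list. The promoter island, which covered both sides of the start, was present in all 8 H3K27ac lists and measured 6400 to 8800 bp. It ranked among the highest of its list, with 0.348% to 1.09% of islands scoring higher. Setd5 shares this promoter with Gt(ROSA)26Sor, the noncoding transcript of the locus used for transgene insertion in mice, whose start lies 32 bp away on the other strand. The 31 bases between both starts, printed because every H3K27ac promoter island spanned them, hold no coding base.
Setd5 and Gt(ROSA)26Sor, chr6:113027328-113027358: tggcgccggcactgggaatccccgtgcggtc

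The second region, 18.2 to 27.6 kb into the gene and ahead of exon 1, carried an island of 3200 to 7000 bp in all 8 lists. The third, 88.4 to 91.0 kb from the start and past the end of the gene, carried one in 7 lists, all but list A of the empty vector at 48 h. Upstream of the promoter, islands lay between positions -11.8 and -5.36 kb, counted from the start, in both empty-vector lists at 48 h (6400 bp in A, 3400 bp in B) and in list B of SETD5 at 48 h (3800 bp). No 0 h list held an H3K27ac island there. H3K4me1 covered part of that stretch at both times, 2800 bp at 0 h and 4400 bp at 48 h. The islands ran from -8.16 to -1.16 kb at 0 h and from -9.96 to -5.56 kb at 48 h. At the start itself H3K4me1 left a gap, from -1.16 to 2.24 kb at 0 h.

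Endogenous SETD5 had 1 island in the Setd5 window, over the promoter, of 6400 bp at 6 h and none at 0 h. Of the 5 genes Setd5 was the only one with an endogenous SETD5 island at its outermost start at 6 h, where 5.18% of all genes had one. By any annotated start 2 of the 5 had one at 6 h, Setd5 and Gps2, against 6.51% of all genes. At 0 h none of the 5 had one at the outermost start, against 1.55% of all genes. SETD5-V5 had an island within 1000 bp upstream of the Setd5 start in all 4 lists. It was the only one of the 5 genes with one in both 0 h lists, as 3.39% of all genes had. In the longest case, list A at 6 h, a single island ran over 53000 bp from -18.2 kb to 34.8 kb.

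Over the whole Setd5 window of 116071 bp, H3K27ac islands covered 17600 bp (A) and 16000 bp (B) with the empty vector at 0 h and 22800 bp and 20200 bp at 48 h. With SETD5 they covered 20200 bp and 27000 bp at 0 h and 23600 bp and 29400 bp at 48 h. Both SETD5 lists lay above both empty-vector lists at each time, which held for 1 of the 5 genes and for 5.44% of all genes. The opposite order held for 0 of the 5 (4.26% of all genes). Without the A lists 2 of the 5 lay higher, a looser rule for which no share of all genes is given. In 0 of the 5 did all 4 SETD5 lists lie above all 4 empty-vector lists (1.98%). The mean difference was 5900 bp (exact permutation p = 0.0556, adjusted over all genes 0.573). Without the stretch from the first to the last coding base, which was left out after the exonic islands had been seen, the difference was -3178 bp, so the higher coverage with SETD5 rested on that stretch.

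Ncor1 (ENSMUSG00000018501.10, chr11:62129928-62272043, minus strand) had little H3K27ac beyond its promoter. The promoter island, shared with Pigl, a gene of glycosylphosphatidylinositol anchor synthesis that starts 256 bp inside Ncor1 on the other strand, was present in all 8 lists at 3000 to 4000 bp. It ranked higher in both empty-vector 48 h lists, with 2.21% and 2.88% of islands scoring higher, than in the other 6 lists, where 5.33% to 8.05% did. The same order held for 9.88% of the 8857 genes with an island at the outermost start in all 8 lists. Ncor1 was the one member among the 5 to show it.

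The H3K27ac window totals of Ncor1 were 3600 bp (A) and 5600 bp (B) in empty-vector cells at 0 h and 4000 bp and 3600 bp at 48 h. In SETD5 cells they were 3000 bp and 3200 bp at 0 h and 8200 bp and 7400 bp at 48 h. Both SETD5 lists at 48 h stood above both SETD5 lists at 0 h, as at 21.3% of all genes. They also stood above both empty-vector lists at 48 h, as at 15.2%. The added length lay 97.8 to 128.2 kb from the start, toward the 3′ end of the gene. List A held islands of 1400, 1400 and 2000 bp and list B of 1400 and 2800 bp, and no other H3K27ac list had any there. These islands were low in rank, with 58.4% to 91.0% of their lists scoring higher. SETD5-V5 list A at 6 h had islands at 96.2 to 100.04 kb and 124.2 to 127.8 kb, which overlap them, and list B had none there.

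Hdac3 (ENSMUSG00000024454.8, chr18:38095498-38114642, minus strand) carried H3K27ac at its promoter, inside the gene and over the neighbouring Diap1, which encodes a formin that nucleates actin filaments. The promoter island, which reached the side of the divergent neighbour Rell2, was present in all 8 lists at 2000 to 3600 bp. In the 4 SETD5 lists 33.9% to 39.9% of islands scored higher, and in the 4 empty-vector lists 53.2% to 62.6% did, so the island ranked higher with SETD5 in every pairing of lists. This order was frequent, at 20.2% of the 8857 genes, and 1 of the 5 genes showed it. An intragenic island 3.84 to 7.64 kb from the start was present in both empty-vector lists at 0 h (1800 and 1400 bp), in neither at 48 h, and in all 4 SETD5 lists (2200 to 3800 bp).

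Islands over the Diap1 gene body, 24.6 to 32.6 kb from the Hdac3 start, behaved differently. They were missing in both empty-vector lists at 0 h and covered 8000 bp (A) and 5000 bp (B) at 48 h. With SETD5 they covered 1600 bp and 2000 bp at 0 h and 3800 bp and 4400 bp at 48 h. SETD5-V5 had no island in the Hdac3 window at 0 h in either list. At 6 h it had islands of 8800 bp (A) and 9800 bp (B) over the same part of Diap1, with 15.2% and 13.3% of islands scoring higher, and list A had a further 4400 bp island at the Diap1 start. None of the SETD5-V5 lists had an island at the Hdac3 start.

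Tbl1xr1 (ENSMUSG00000027630.8, chr3:21975574-22115516, plus strand) had a strong promoter island and a series of intragenic ones. The promoter island was present in all 8 lists, with 0.911% to 2.77% of islands scoring higher. It measured 6200 bp (A) and 5600 bp (B) with the empty vector at 48 h and 3400 to 4200 bp in the other 6 lists. Of the intragenic islands, the one 11.6 to 16.03 kb from the start was present in all 8 lists, the one 63.4 to 68.4 kb from it in all but list B of the empty vector at 0 h, and the one 25.8 to 29.8 kb from it in 5 lists, among them neither empty-vector list at 48 h. A small island 107 to 109 kb from the start was seen in both empty-vector lists at 48 h (2200 and 1400 bp). Another, from -12.8 to -10.6 kb, was seen in both SETD5 lists at 48 h (1800 and 1600 bp) and in no other H3K27ac list.

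SETD5-V5 spread widely over Tbl1xr1 at 6 h. The lists held 3 islands with 10000 bp (A) and 0 islands (B) at 0 h, and 10 islands with 62600 bp (A) and 7 islands with 49000 bp (B) at 6 h, so 34.8% and 27.2% of the window was covered. The promoter, the region near 12 to 16 kb and the region near 64 to 68 kb, which were acetylated in most H3K27ac lists, were under a SETD5-V5 island in both 6 h lists. Endogenous SETD5 had no island in the Tbl1xr1, Hdac3 or Ncor1 windows at either time.

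Gps2 (ENSMUSG00000023170.8, chr11:69727390-69730093, plus strand) is short, at 2704 bp, and its window is filled by neighbours. Its own promoter island was present in all 8 H3K27ac lists at 1200 to 2400 bp, with 30.2% to 52.6% of islands scoring higher. The island at Eif5a, a translation factor gene that ends next to Gps2, was larger, at 7000 bp (A) and 5800 bp (B) with the empty vector at 48 h and 3000 to 4600 bp in the other 6 lists. A divergent promoter upstream of Gps2, that of Neurl4 (start at -12010 bp) and 2810408A11Rik, carried an island in all 8 lists at 2000 to 4000 bp. At the far edge, islands of 11000 bp (A) and 4600 bp (B) reached into the window in the empty-vector lists at 48 h, with 2493 and 293 bp inside it. They overlapped Ybx2, a gene of a Y-box nucleic acid binding protein of germ cells, and that of list A also ran over the next gene. With SETD5, list A at 48 h had a 2000 bp island there and list B had none in the window.

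SETD5-V5 and endogenous SETD5 met at Gps2. SETD5-V5 islands lay over the gene in list A at 0 h (6600 bp) and, at 6 h, in lists A (13200 bp) and B (9200 bp), with 2.13% and 3.90% of islands scoring higher at 6 h. Each of these islands also ran into Eif5a and overlapped the promoter of an annotated Eif5a start. List B at 0 h had a 3600 bp island that began 2.41 kb from the start. Endogenous SETD5 had a 6800 bp island at 6 h, from 0.411 to 7.21 kb past the start, and no island at 0 h. That island lay over the rest of Gps2 and ran into Eif5a, where it too overlapped the promoter of an annotated start. H3K4me1 had an island at the Gps2 start at 48 h, of 4000 bp, and at 0 h one of 1000 bp inside the gene.

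**Figure D3:**
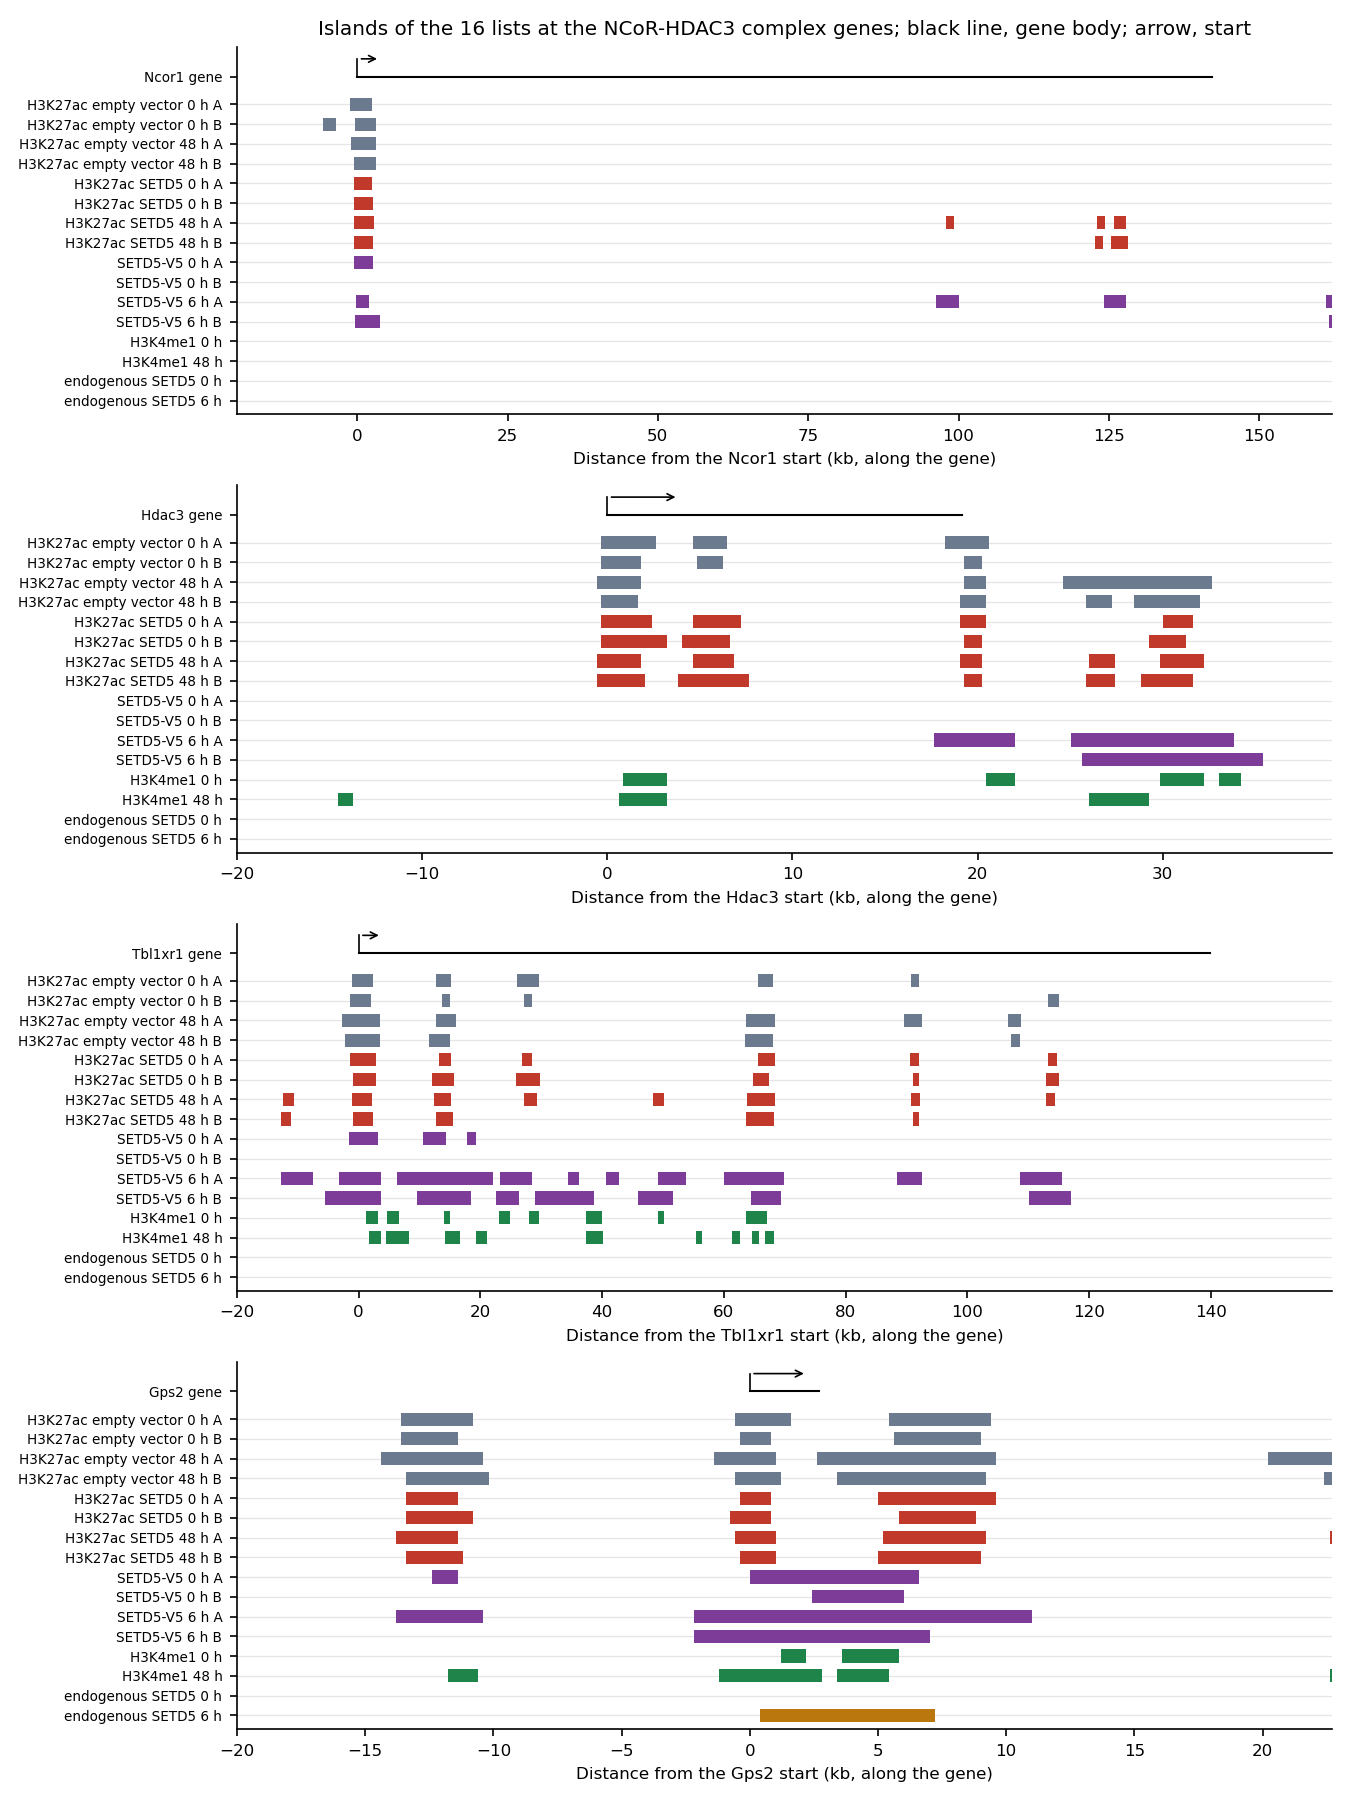
Islands of the 16 lists (rows) at Ncor1, Hdac3, Tbl1xr1 and Gps2, as bars against the distance in kb from each gene's start, with the gene body as a black line. All 8 H3K27ac rows hold a bar at each start, and the SETD5-V5 rows fill between 0 h and 6 h, most at Tbl1xr1.

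Across the 5 genes, an H3K27ac island at the promoter was the constant feature. All 5 had one in all 8 lists, whether any annotated start (42.6% of all genes) or the outermost start (39.6% of all genes) was used. At 6 h, SETD5-V5 lay at the outermost start of 4 of the 5 genes in both lists, all but Hdac3, against 18.2% of all genes. H3K4me1 lay at the outermost start of 0 of the 5 at 0 h (16.1% of all genes) and of 1, Gps2, at 48 h (18.2%). By any annotated start, Setd5 and Gps2 had an H3K4me1 island at both times, a rule for which no share of all genes is given. The median over the 5 genes of the share of the window covered by H3K27ac was above that over all genes in each list. It was 7.78% to 19.6%, while the median over all genes was 3.40% to 4.27%. Ncor1 lay below the median of all genes in every empty-vector list and in both SETD5 lists at 0 h. In list A of the empty vector at 0 h it stood at 1.98% against 3.91%. Longer genes and genes with close neighbours differ in what a window can hold, so these medians describe windows and not genes.

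In empty-vector cells, windows of 4 of the 5 genes were covered more by H3K27ac in both lists at 48 h than in both at 0 h, which was true of 27% of all genes. Hdac3 went from 7200 bp (A) and 4600 bp (B) to 11600 bp and 8400 bp, a mean change of 4100 bp. Tbl1xr1 went from 13400 bp and 7800 bp to 19600 bp and 15000 bp, a mean change of 6700 bp. Gps2 went from 9000 bp and 6800 bp to 15893 bp and 11093 bp, a mean change of 5593 bp. Setd5 changed by 4700 bp, and Ncor1, whose lists overlapped, by -800 bp. With 2 lists against 2 the exact permutation test cannot go below p = 0.333, which is what these 4 genes reached. When the flanks were left out, 1 of the 5 still lay higher and 1 lower, with -2500 bp at Hdac3 and -53.5 bp at Gps2, so at both genes the added length lay in the flanks, over Diap1 at Hdac3 and over Eif5a, Ybx2 and the Neurl4 promoter at Gps2.

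With SETD5, 2 of the 5 windows were covered more in both lists at 48 h than in both at 0 h, Ncor1 by 4700 bp and Hdac3 by 1900 bp, against 21.3% of all genes (exact permutation p = 0.333 for each). Compared within letters, 4 of the 5 were covered more at 48 h in both A and B, all but Tbl1xr1 (5600 bp in A, -3600 bp in B). The count was 4 without the A lists and 5 without the B lists. These rules are looser and no share of all genes is given for them, so the counts cannot be set beside the 21.3%. At Hdac3 the change was -500 bp without the flanks. Gps2 had 7800 bp (A) and 7200 bp (B) at 0 h with SETD5 and 8093 bp and 7600 bp at 48 h, groups that overlap. At 48 h both SETD5 lists of Gps2 lay below both empty-vector lists, which 22% of all genes did, and those of Setd5 and Ncor1 lay above them, which 15.2% did. At 0 h both SETD5 lists lay above both empty-vector lists at Setd5, Hdac3 and Tbl1xr1 (15.9% of all genes). They lay below them at Ncor1 (9.72%). The Setd5 window here holds the exonic islands, and without its coding stretch its difference over both times was -3178 bp. Over both times, the difference between SETD5 and the empty vector was 1250 bp at Ncor1, 1800 bp at Hdac3, 1850 bp at Tbl1xr1 and -3023 bp at Gps2, with exact permutation p from 0.167 to 0.611 and adjusted p of at least 0.754.

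**Figure D4:**
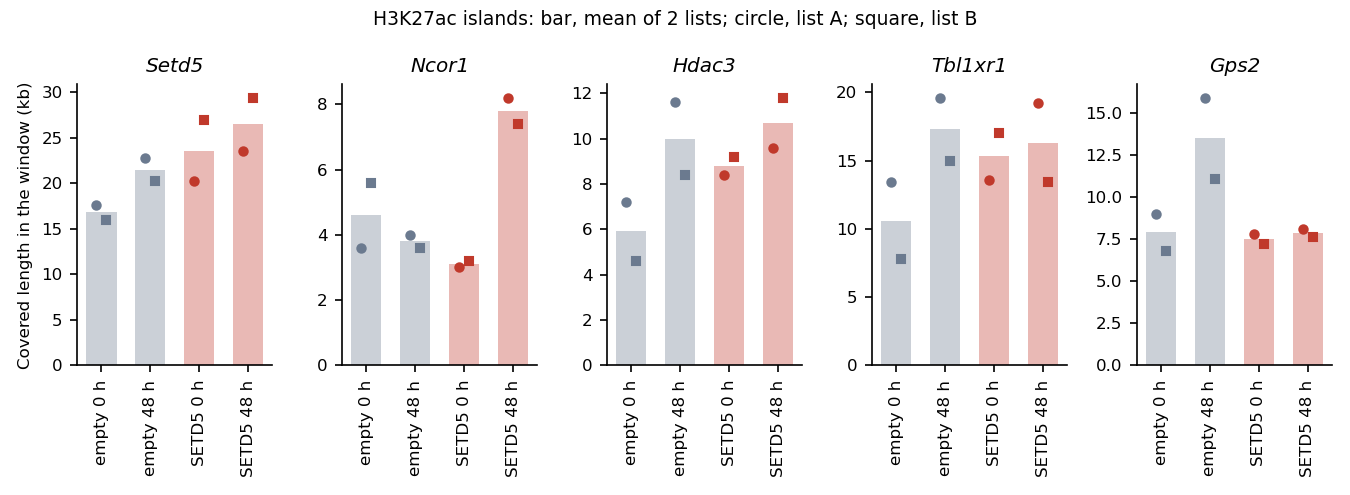
Length of each gene's window covered by H3K27ac islands (vertical axis, kb) in the 4 groups, with bars as means of 2 lists, circles for list A and squares for list B. Ncor1 is highest with SETD5 at 48 h (8200 and 7400 bp), and Gps2 is highest with the empty vector at 48 h (15893 and 11093 bp).

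SETD5-V5 covered 4 of the 5 windows more in both 6 h lists than in both 0 h lists, against 32.3% of all genes, and 0.885% of genes went the other way. The values at 0 h and 6 h were 3200 and 10673 bp in list A and 0 and 4673 bp in list B at Ncor1. At Hdac3 they were 0 and 13200 bp in A and 0 and 9800 bp in B, and at Gps2 7600 and 16600 bp in A and 3600 and 9200 bp in B. Tbl1xr1 had the largest difference of the 5, with a mean of 50800 bp. At Setd5 the lists overlapped, with 77200 bp (A) and 54400 bp (B) at 0 h and 85800 bp and 76000 bp at 6 h. The exact permutation p was 0.333, the smallest possible, at the 4 genes and 0.667 at Setd5. Without the stretch from the first to the last coding base of Setd5, 5 of the 5 lay higher at 6 h without overlap. The difference at Setd5 was then 15000 bp. When each list was scaled to its own covered share of the genome, Hdac3 and Tbl1xr1 still lay higher at 6 h without overlap, and Setd5 and Gps2 lay lower, so the count depends on that scaling.

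**Figure D5:**
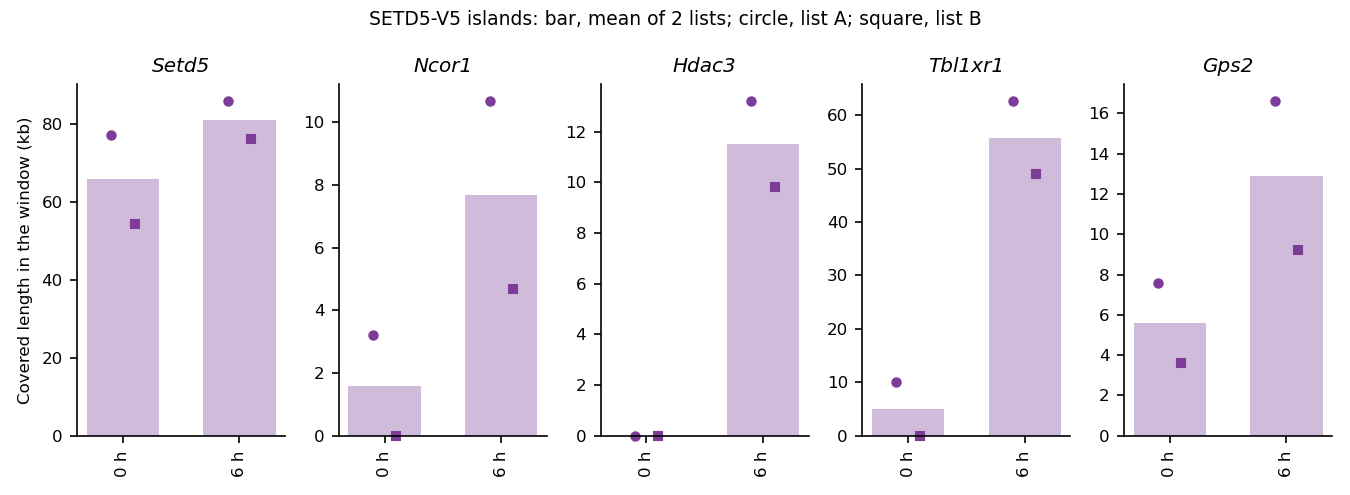
Length of each gene's window covered by SETD5-V5 islands (vertical axis, kb) at 0 h and 6 h, with bars as means of 2 lists, circles for list A and squares for list B. Both 6 h points lie above both 0 h points at every gene except Setd5, where 76000 bp in list B at 6 h falls below 77200 bp in list A at 0 h.

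The genes whose windows were covered most like those of the 5 were found by the Euclidean distance over the percent of the window covered in the 16 lists. For Setd5, Calu at 19.8 percentage points and Asap1 at 21.4 were among the 3 nearest. Ncor1 lay closest to Tdrd3, at 2.98 points. The closest gene to Hdac3 was Gjc1 at 9.13, that to Tbl1xr1 was Rhoj at 8.74, and that to Gps2 was Eif5a at 16.02, with which it shares most of its window. Each distance covers all marks and times together.

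The 22 further genes of the pathway comprise other genes of the corepressor complex, class I deacetylases, the PAF1 complex and the anaphase-promoting complex. They also hold the acetyltransferases Crebbp and Ep300 and the SET-domain relative Mll5. Of these 22, 21 had a promoter island in all 8 H3K27ac lists, against 42.6% of all genes. The exception was Coro2a, a coronin of the NCoR complex, whose window was covered to a mean of 2100 bp in the empty-vector lists at 48 h and 0 bp in the other 3 groups. SETD5-V5 lay at the promoter of 10 of the 22 in both lists at 6 h, where 21.8% of all genes had it, and of 3 in both at 0 h, against 5.16%. Endogenous SETD5 lay at 3 of them at 6 h, against 6.51%, among them Ski, a repressor of SMAD signalling, and Mll5. At 48 h, 12 of the 22 windows were covered less with SETD5 than with the empty vector and 3 more, against 22% and 15.2% of all genes. Genes without an H3K27ac promoter island in all 8 lists are more frequent among all genes than among the 22. The window shares of all genes, here and in the next paragraph, are therefore not a like baseline. The coding bases of none of the 22 were covered more in both SETD5 lists at each time, a rule that 0.541% of all genes met.

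Tbl1x, the X-linked relative of Tbl1xr1, had a mean of 25800 bp at 0 h and 17800 bp at 48 h with the empty vector and of 30200 bp and 13500 bp with SETD5, both without overlap, the opposite order to Tbl1xr1 in the empty-vector lists. Between 0 h and 48 h in empty-vector cells, 12 of the 22 windows were covered more and 4 less, against 27% and 15.7% of all genes. With SETD5 5 were covered more and 7 less, close to the 21.3% and 20.6% of all genes.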

How the data were processed

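The deposited lists came from 16 ChIP-seq libraries. The authors mapped 36 bp reads to mm9 (ELAND or Bowtie2), and called islands in each library with SICER or SICER2 (200 bp windows joined over gaps of 400 bp, or 600 bp for SETD5, at an E-value of 100). Each deposited file gives start, end and a score, the authors' value from the caller, used here to rank islands within a list. The files hold no counts. Coverage was computed over NCBIM37 (mm9) with GENCODE vM1 in Python 3.11.15 and numpy 2.4.6, with sequences from samtools 1.23.1, and the code was checked on simulated data and against bedtools 2.31.1. A promoter comprised 1000 bp before a start and 100 bp after it, and an overlap of 1 bp counted. Groups were compared by exact two-sided permutation tests, with Benjamini-Hochberg adjustment over all genes. Genes named were the members, neighbours whose start lies in a window, the 3 genes nearest to Setd5 and the nearest to each other member, and fixed pathway and marker lists. Members and lists were chosen with earlier results of these data known. Alternatives were islands above the median score, equal numbers of islands, other windows and promoters, scaling, each replicate left out and a replicate block. Results of some genes that the rule names are not reported here. The other data of the study were not analysed here.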

Additional observations from a re-analysis of the deposited data

How the results depend on the processing

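The coverage of Setd5 coding bases by H3K27ac was higher with SETD5 under every alternative run for it, by 33.1 points with islands above the median score and 69.99 with the 31000 highest-scoring islands, and the replicate block gave the same 85.3 points (exact sign-flip permutation p = 0.125, the smallest for 4 pairs). The count of members higher with SETD5 at both times, 1 in the report, was 0 with islands above the median score, with the 31000 highest-scoring islands, with 50 kb flanks and without the Setd5 coding stretch, where Setd5 stood at -3178 bp, and 1 to 2 when a replicate was left out. The count lower was 0, and 1 with islands above the median score or 50 kb flanks, and 0 to 1 when a replicate was left out. For 48 h against 0 h with the empty vector, 4 members were higher and 0 lower, but 1 and 1 without flanks (Hdac3 -2500 bp, Gps2 -53.5 bp), and leaving out a replicate gave 0 to 1 lower. With SETD5, the 2 members higher became 1 with the 31000 highest-scoring islands, 4 under the replicate block and 4 to 5 when a replicate was left out, with 0 to 1 lower, and Hdac3 stood at -500 bp without flanks. For SETD5-V5, the 4 members higher and 0 lower at 6 h became 2 (Hdac3, Tbl1xr1) and 2 (Setd5, Gps2) after scaling to the covered share of the genome, where Gps2 differed by -1.37 in the ratio of window to genome coverage. Without the Setd5 coding stretch, 5 members were higher and 0 lower, with Setd5 at 15000 bp. Members with a promoter island in all 8 H3K27ac lists were 5, and 3 with islands above the median score. The cause was not tested for any of these, and no share of all genes is given for these counts. Deviations of A and B correlated between the times at 0.336 (empty vector), 0.255 (SETD5) and 0.475 (SETD5-V5), and between the vectors at -0.426 (0 h) and -0.0613 (48 h), so that the letters went together across times and not across vectors, and no source says what a letter shares. With the crossed replicate block, chosen after seeing the data like the coding stretch, 2 members were higher and 0 lower. The replicate block changed no other count by over 1.5 times. With 2 lists per group and no counts in islands, small differences cannot be resolved.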
